A study of Mus musculus with 2 samples.

Results

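MHC class II presentation genes make, load and switch on the molecules that show peptides to CD4+ T cells. The group described here has 10 genes, taken by symbol from the 32286 features of the count tables: H2-Aa, H2-Ab1, H2-Eb1, Cd74, H2-DMa, H2-DMb1, H2-DMb2, H2-Oa, H2-Ob and Ciita. All 10 were found. They were measured by single-cell RNA sequencing in lungs of BALB/c mice that carried 4T1 tumours, an established mouse mammary carcinoma line placed in the mammary fat pad, on day 14 after inoculation. 1 library came from mice given the S100A4-11 antibody and 1 from mice given an IgG antibody. The study concerns the lung before metastasis under inhibition of S100A4, a secreted calcium-binding protein. The labels give lung as the tissue while the protocol speaks of tumour, and alveolar and lung capillary cell classes were present in both libraries. Strain, tumour, site and day are the same in both groups, and the dose, the age of the mice and the number of animals behind a library are not given in the labels. With 1 library per group no difference has a replicate check, so no test was made. Intervals in parentheses are exact 95% intervals and cover counting error only.

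Class II molecules are pairs of an alpha and a beta chain that bind peptides from proteins taken up by the cell. In the endoplasmic reticulum the invariant chain, the product of Cd74, fills the groove and guides the pair to endosomes. There proteases trim it to a short remnant, which the H2-DM heterodimer helps to exchange for peptide, while H2-O restrains H2-DM. Dendritic cells, B cells and activated macrophages are the professional antigen-presenting cells and make these proteins constitutively or at high level. Lung capillary endothelium and alveolar type 2 cells, the surfactant-secreting cells of the alveolus, are known to carry class II too, without being professional presenters. Ciita, the class II transactivator, is the coactivator that sets transcription of the other genes, and interferon-gamma induces it in cells that are not professional presenters.

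The genes lie close together. H2-Oa, H2-DMa, H2-DMb2, H2-DMb1, H2-Ob, H2-Ab1, H2-Aa and H2-Eb1 span chr17:34092340-34316674 of build mm10 in the GENCODE annotation, with H2-Aa alone on the minus strand. Cd74 and Ciita are on other chromosomes, Ciita at chr16:10480059-10528418 on the plus strand. Class II promoters are known for an X box, bound by the RFX complex and CREB, and a Y box, an inverted CCAAT bound by NF-Y, and Ciita is recruited by these factors. Promoter windows of 300 bases (250 before to 50 after the start) from RefSeq, build GRCm38.p6, were used for 7 of the 10 members. H2-Ab1, Cd74 and Ciita are not among these 7, so the member counts of motifs leave them out. The windows below are shown because 4 of these 6 genes (H2-DMb2, H2-DMb1, H2-Aa and H2-Eb1) were called lower together in the endothelium, while H2-Oa and H2-Ob were nearly undetected there. The window of H2-Ob holds both motifs searched, and those of H2-Oa and H2-Aa hold GATTGG without AACNNATG. A window without AACNNATG is not thereby without an X box, as only these letters were searched. Each is 70 bases long and written 5′ to 3′ on the gene's own strand, with capitals at GATTGG and, where present, at AACNNATG.
H2-Oa: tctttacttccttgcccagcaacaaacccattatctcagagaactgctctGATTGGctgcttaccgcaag
H2-DMb2: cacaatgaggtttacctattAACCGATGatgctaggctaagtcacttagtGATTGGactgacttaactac
H2-DMb1: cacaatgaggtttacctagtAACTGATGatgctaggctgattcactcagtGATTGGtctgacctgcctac
H2-Ob: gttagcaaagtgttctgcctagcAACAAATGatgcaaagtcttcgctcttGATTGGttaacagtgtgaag
H2-Aa: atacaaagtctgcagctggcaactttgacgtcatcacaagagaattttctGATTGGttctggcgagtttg
H2-Eb1: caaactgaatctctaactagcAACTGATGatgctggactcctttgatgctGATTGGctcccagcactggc

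These windows lie at chr17:34092285-34092354 on the plus strand for H2-Oa and chr17:34145108-34145177 on the plus strand for H2-DMb2. For H2-DMb1 the window is chr17:34153079-34153148 and for H2-Ob chr17:34238797-34238866, both on the plus strand. The H2-Aa window is chr17:34287853-34287922 on the minus strand, and the H2-Eb1 window chr17:34305757-34305826 on the plus strand. In these 6 windows GATTGG began 44 to 91 bases before the RefSeq start. Both strands of all 32851 RefSeq windows were searched. GATTGG was in 16.1% of them and in 7 of the 7 member windows, including that of H2-DMa, where it lay elsewhere and is not printed. AACNNATG was in 8.86% of all windows and in 4 of 7 members. The arrangement of AACNNATG followed by GATTGG after 10 to 35 bases was in 29 windows, or 0.0883%, and 4 of those 29 were H2-DMb1, H2-DMb2, H2-Ob and H2-Eb1, with 19 to 22 bases between the motifs. H2-DMb1 and H2-DMb2 are neighbouring paralogs. How alike their transcripts are was not measured, so their separate values are uncertain wherever the counting could split reads between them. The motif letters were chosen after these windows had been seen, and a match is a description of the letters only.

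The S100A4-11 library held 12506 barcodes and 64695542 UMIs, and the IgG library 14411 barcodes and 85458143 UMIs. After filters and removal of called doublets, 11720 S100A4-11 cells and 13359 IgG cells remained, with median depths of 3650.5 and 3977 UMIs. The libraries shared 266 barcode sequences, 238 of them among kept cells. Cells were clustered without the 10 members, named by marker genes and called "-like", since the names rest on transcripts alone. Levels are UMIs per 1000000 UMIs of a class (CPM), and a ratio is the S100A4-11 CPM over the IgG CPM. A gene was called higher or lower at a ratio of at least 1.5 in either direction, with an interval excluding 1 and at least 20 UMIs over both libraries. Each captured molecule counts once whatever the length of its transcript, so no division by length was made. BALB/c carries another class II haplotype than the reference genome. Its part in the levels was not tested, and it is shared by both libraries.

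Summed over the 10 members, dendritic cell-like cells had the highest level of the 18 classes that reached 50 cells per library, at 46359 CPM (45947 to 46774) in S100A4-11 and 58355 CPM (57900 to 58812) in IgG. B cell-like cells followed with 39427 and 38624 CPM. Interstitial macrophage-like cells, the C1q-positive macrophages of the lung wall, had 33731 and 33085 CPM. Nonclassical monocyte-like cells, which patrol the vessel wall, had 16160 CPM in S100A4-11 and 19654 CPM in IgG. Alveolar type 2-like cells came next at 8222 CPM (8079 to 8367) and 7925 CPM (7823 to 8027), above classical monocyte-like cells at 5059.5 and 5325 CPM. As clustered here, these 6 classes had this order in both libraries, with no overlap between the intervals of neighbours. The place of the monocytes depended on the clustering: at resolution 3 the level over both libraries was 11291 CPM in classical monocyte-like, 6613 in nonclassical monocyte-like and 6521 in alveolar type 2-like cells. Over 7 alternatives it ran from 4434 to 11291 CPM, from 6613 to 22672 CPM and from 6521 to 8076 CPM in these classes.

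Below them the order differed between the libraries. In S100A4-11, large-vessel endothelial-like cells had 1021 CPM (983 to 1061), general capillary-like cells 872 (848 to 896) and aerocyte-like cells, the capillary cells specialised for gas exchange, 644 (620.4 to 668.8). In IgG, general capillary-like cells stood highest of the 3 at 3199.9 CPM (3156 to 3244), before large-vessel endothelial-like cells at 2234 (2181 to 2288) and aerocyte-like cells at 1648 (1616 to 1680.1). In the S100A4-11 library general capillary-like, innate lymphoid-like, other endothelial-like, alveolar macrophage-like, aerocyte-like, fibroblast-like and pericyte-like cells followed in this order, each but the last with an interval that overlapped that of the next, so neighbours in it are not told apart. Alveolar macrophage-like cells had 654 CPM in S100A4-11 and 1139 CPM in IgG. Neutrophil-like cells, which are not known as class II presenters, stood at 133 CPM in S100A4-11 and 262 CPM in IgG. T cell-like cells had 204 CPM in S100A4-11 and 119 CPM in IgG, with 4 of 7 members past 20 UMIs called higher, where 5.38% of features were called and 2.08% were higher. Their summed ratio fell below 1 under 5 of 14 alternatives.

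**Figure D1:**
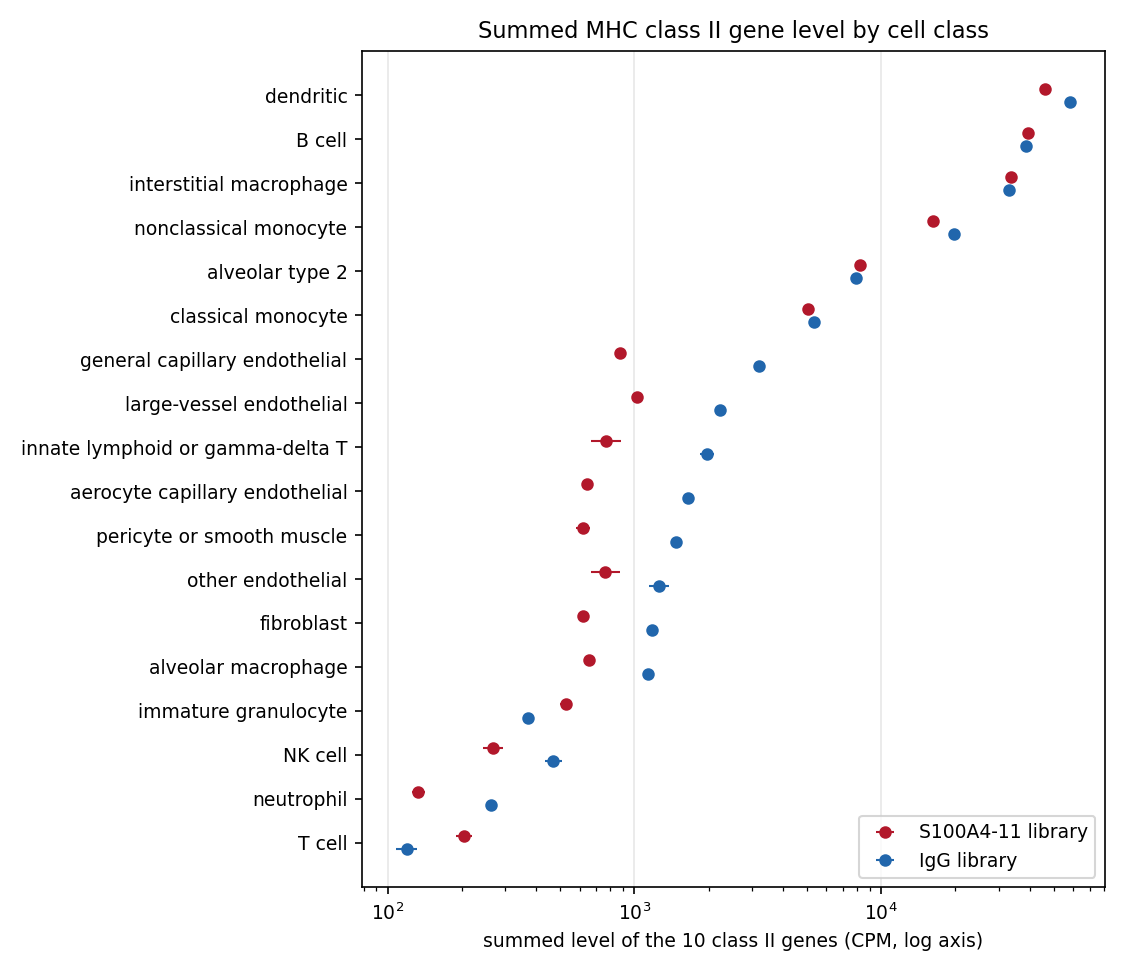
Summed level of the 10 class II genes (CPM, log axis) in the 18 cell classes of at least 50 cells per library, with S100A4-11 and IgG as separate points and exact 95% Poisson intervals. Dendritic, B cell and interstitial macrophage classes sit between 33085 and 58355 CPM in both libraries and alveolar type 2 at 8222 and 7925 CPM, while the endothelial points lie further left in S100A4-11 (644 to 1021 CPM in the 3 main classes) than in IgG (1648 to 3199.9 CPM).

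Of the 18 classes, general capillary-like cells had the summed ratio farthest below 1. These are the capillary cells that also act as endothelial progenitors, and numbered 1525 in S100A4-11 and 1577 in IgG. The summed level was 872 CPM in S100A4-11 and 3199.9 CPM in IgG, a ratio of 0.273 (0.264 to 0.281). In this class 3.96% of the 11756 features with at least 20 UMIs were called in either direction and 2.65% were called lower. Of the 10 members, 8 reached 20 UMIs over both libraries, and these 8 were called lower. H2-Oa and H2-Ob did not reach it, with 2 and 1 UMIs in S100A4-11 and 0 and 1 UMIs in IgG. The median log2 ratio of the 8 was -1.97, beside -0.01 over all features tested. Median depth was alike, at 3085 UMIs per cell in S100A4-11 and 3120 in IgG.

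Among the peptide-binding chains in general capillary-like cells, H2-Aa, the alpha chain of H2-A, had 125 CPM in S100A4-11 and 364 CPM in IgG, a ratio of 0.344 (0.316 to 0.374). H2-Ab1, the beta chain of H2-A, had 273 and 729.7 CPM, a ratio of 0.375 (0.354 to 0.397). H2-Eb1, the beta chain of H2-E, had 74.7 and 285 CPM, a ratio of 0.262 (0.236 to 0.291). These 3 chains were lower by 2.67-fold to 3.81-fold. The invariant chain gene Cd74 fell further, to 364 CPM in S100A4-11 against 1708 CPM in IgG, 4.69-fold lower (4.48 to 4.92). Of the exchange factor H2-DM, the alpha chain gene H2-DMa had 17.8 and 37.7 CPM, a ratio of 0.473 (0.372 to 0.597). The beta chain genes were lower as well, H2-DMb1 at 3.39 and 16.7 CPM and H2-DMb2 at 8.81 and 41.2 CPM, with ratios of 0.203 (0.119 to 0.33) and 0.214 (0.156 to 0.289). The transactivator Ciita had 27 UMIs in S100A4-11 and 116 UMIs in IgG, or 4.58 and 18.4 CPM, 4.03-fold lower (2.63 to 6.37).

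Aerocyte-like cells (700 S100A4-11 and 901 IgG cells) had a summed level of 644 CPM in S100A4-11 and 1648 CPM in IgG, a ratio of 0.391 (0.375 to 0.408). Here 5.52% of 11710 features were called, 3.48% lower, and the 8 members that reached 20 UMIs were called lower, with a median log2 ratio of -1.27 beside -0.01 over all features. Cd74 had 309 and 861 CPM, a ratio of 0.358 (0.337 to 0.381), and H2-Eb1 52.8 and 159 CPM, a ratio of 0.333 (0.287 to 0.385). H2-Aa, at 107 and 207 CPM, had the ratio nearest 1 of the peptide-binding chains, 0.517 (0.463 to 0.576). Ciita had 5.40 CPM in S100A4-11 and 10.1 CPM in IgG, a ratio of 0.536 (0.317 to 0.876). H2-Oa and H2-Ob had 6 and 6 UMIs in S100A4-11 and 6 and 7 UMIs in IgG, too few to compare.

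Large-vessel endothelial-like cells, which line arteries and veins, numbered 411 in S100A4-11 and 473 in IgG. Their summed level was 1021 CPM in S100A4-11 and 2234 CPM in IgG, a ratio of 0.457 (0.437 to 0.478). Of 10967 features 4.55% were called, 2.22% lower, and the 8 members past 20 UMIs were called lower, with a median log2 ratio of -1.08 beside -0.03 over all features. Cd74 had 471 and 1129 CPM, a ratio of 0.417 (0.391 to 0.446), and H2-Ab1 245 and 535 CPM, a ratio of 0.459 (0.418 to 0.503). H2-DMa was nearest 1 among the called members, with 17.1 and 28.6 CPM and a ratio of 0.600 (0.409 to 0.870). Ciita had 13 UMIs in S100A4-11 and 50 UMIs in IgG, a ratio of 0.298 (0.149 to 0.557), which was 1.01 when no barcode was removed for few genes or a high mitochondrial share. H2-Oa and H2-Ob had 4 and 7 UMIs in S100A4-11 and 0 and 0 in IgG, under the 20-UMI minimum. At the higher clustering resolution the summed ratio of this class was 0.696, short of a call, while under the other 13 alternatives it stayed between 0.370 and 0.610.

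Alveolar type 2-like cells, with 162 S100A4-11 and 294 IgG cells, did not show a difference of this size. Their summed level was 8222 CPM in S100A4-11 and 7925 CPM in IgG, a ratio of 1.04 (1.02 to 1.06). None of the 8 members past 20 UMIs was called, where 7.8% of 10614 features in the class were called and 6.2% were lower. H2-Aa had 1330.3 and 1334 CPM, a ratio of 0.997 (0.945 to 1.05). Cd74 had 5248 and 5020 CPM, a ratio of 1.05 (1.02 to 1.07). Ciita had 19.6 and 20.8 CPM, a ratio of 0.942 (0.588 to 1.48). The interval of H2-DMb2, at 106 and 84.3 CPM with a ratio of 1.26 (1.02 to 1.54), lay above 1 without reaching the fold for a call. H2-Oa had 8 UMIs in S100A4-11 and 3 in IgG, and H2-Ob 0 and 3.

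**Figure D2:**
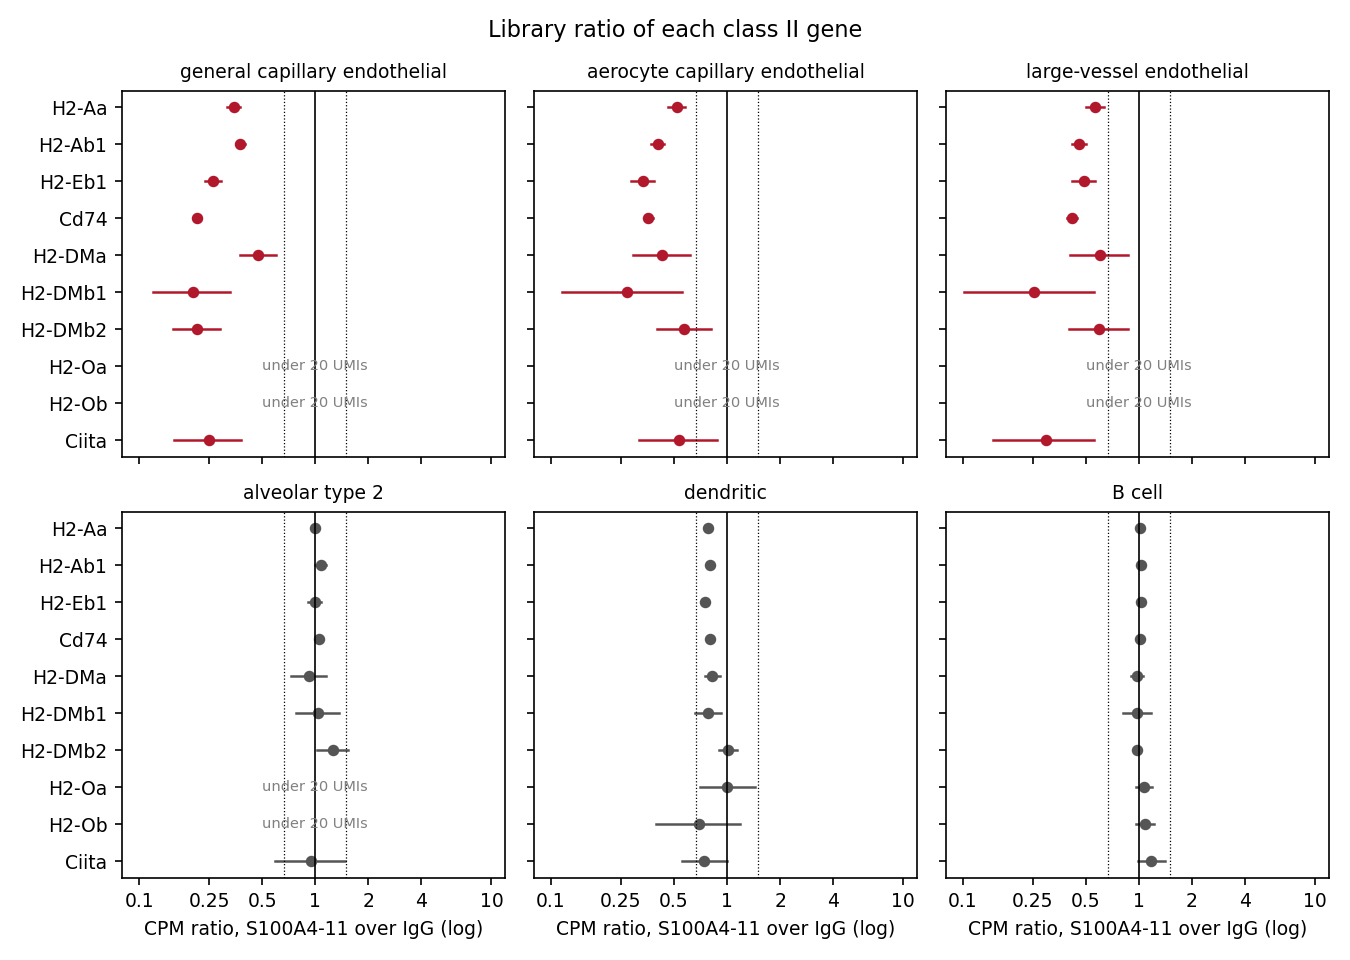
Ratio of CPM, S100A4-11 over IgG (log axis), for each of the 10 class II genes in the endothelial, alveolar type 2 and professional antigen-presenting classes, with exact 95% intervals. In general capillary cells H2-DMb1 (0.203), Cd74 (0.213) and H2-DMb2 (0.214) lie furthest left, whereas in alveolar type 2 and B cells the points lie near 1, as with H2-Aa at 0.997 and 1.01.

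In B cell-like, interstitial macrophage-like, monocyte-like and dendritic cell-like cells no member was called in either direction, unlike in alveolar macrophage-like cells. B cell-like cells, with 1365 S100A4-11 and 867 IgG cells, had a summed ratio of 1.02 (1.01 to 1.03), and their 10 members ran from 0.975 for H2-DMb1 to 1.18 for Ciita, where 5.64% of 10778 features were called. Cd74 had 21048 and 20601 CPM and H2-Aa 8634 and 8512 CPM. Interstitial macrophage-like cells had a summed ratio of 1.02 (1 to 1.03) with 0 of 8 called against a background of 6.45%, and their lowest value was that of H2-DMb1, at 109.7 and 153 CPM and a ratio of 0.716 (0.555 to 0.919). Classical monocyte-like cells had 0 of 8 called, with a background of 4.07% and a summed ratio of 0.95 (0.932 to 0.969). That ratio depended on the clustering: it was 1.95 with each library clustered alone, where H2-Aa stood at 2.10 and H2-Eb1 at 2.71, and 1.02 at resolution 1.

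Nonclassical monocyte-like cells had a summed ratio of 0.822 (0.812 to 0.832) with 0 of 9 called, where 4.37% of features were. H2-Aa had 3661 CPM in S100A4-11 and 4653 CPM in IgG, a ratio of 0.787 (0.767 to 0.807), and Ciita 27.5 and 33.4 CPM, a ratio of 0.823 (0.604 to 1.12). Dendritic cell-like cells, only 92 in S100A4-11 and 94 in IgG, had a summed ratio of 0.794 (0.785 to 0.804). None of their 10 members was called, beside 8.07% of 8150 features. Cd74 had 22322 and 27770 CPM, a ratio of 0.804 (0.79 to 0.818), H2-Eb1 5446 and 7222 CPM, a ratio of 0.754 (0.729 to 0.78), and Ciita 80.6 and 108 CPM, a ratio of 0.744 (0.555 to 0.993). Cells with Cd209a, Mgl2 and Ccl17 as leading genes (cluster 5005) had 71783 and 69983 CPM and made up 12 of the 92 S100A4-11 cells and 28 of the 94 IgG cells. With the shares of the dendritic clusters held at those of the IgG library, the class ratio was 0.932.

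The difference was seen inside single clusters of the endothelium. The 3 general capillary-like clusters (0, 7 and 16) had 893, 910.5 and 688 CPM in S100A4-11, against 3197, 3569 and 2553 CPM in IgG, so all 3 had ratios between 0.255 and 0.279. Aerocyte-like clusters were not alike. Cluster 19, the deepest with medians of 11134 and 13549 UMIs, had 635 and 2304 CPM, a ratio of 0.275 (0.261 to 0.29). Cluster 17 went the other way at 545 CPM in S100A4-11 and 253 CPM in IgG, a ratio of 2.15 (1.88 to 2.47), cluster 29 had 1380.1 and 1094 CPM, and cluster 32 had 337 and 493 CPM. Ciita had 20 and 59 UMIs in cluster 19 and, too few to compare, 1 and 0 UMIs in cluster 17. The large-vessel clusters 14 and 33 had 962 and 1164 CPM in S100A4-11 and 2416 and 1811 CPM in IgG, with ratios of 0.398 and 0.643. The larger alveolar type 2-like cluster, 24, had 8422 and 8544 CPM, while cluster 42, with 19 S100A4-11 and 59 IgG cells, had 4284 and 2042 CPM.

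**Figure D3:**
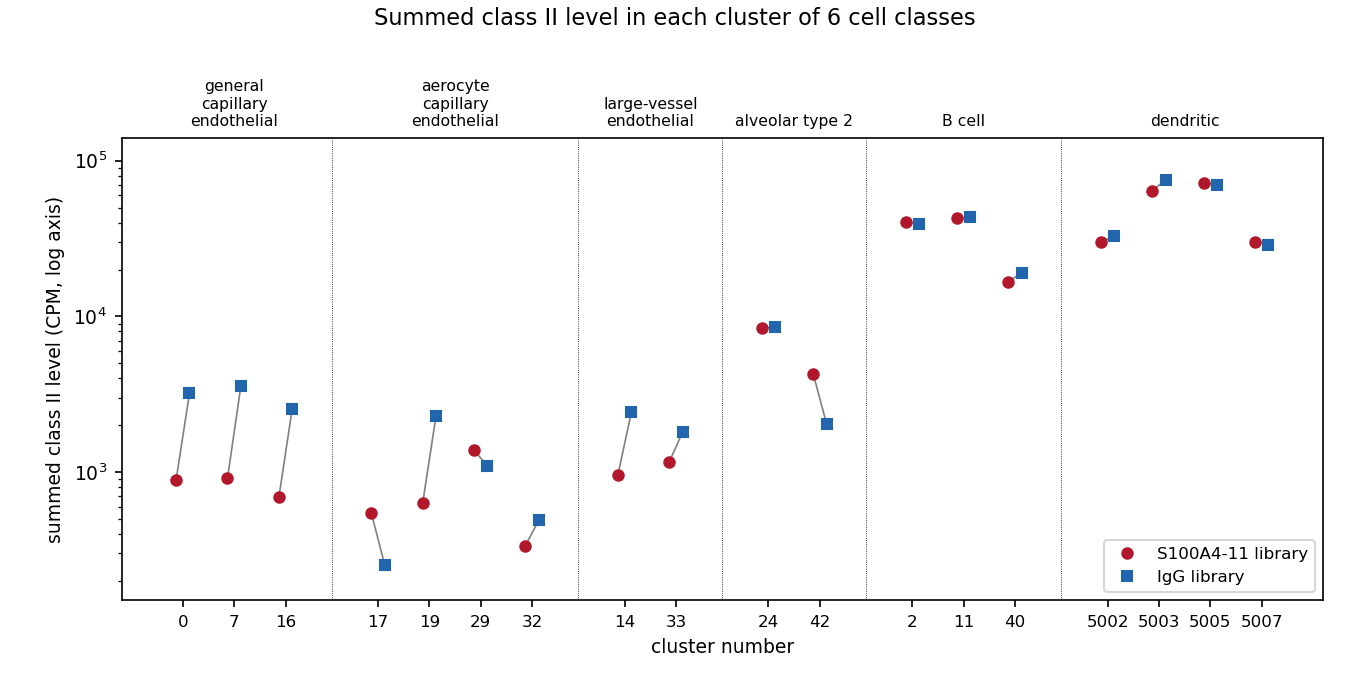
Summed class II level (CPM, log axis) in each cluster of 6 cell classes, with the S100A4-11 point left of the IgG point of the same cluster and a line joining them. The 3 general capillary clusters drop alike (893, 910.5 and 688 CPM in S100A4-11 against 3197, 3569 and 2553 CPM in IgG), the aerocyte clusters 17 and 19 go opposite ways, and the B cell and dendritic clusters stay close together.

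Counting cells gave the same picture. A member UMI was found in 60.7% of general capillary-like cells in S100A4-11 and 80.8% in IgG, and after each cell was thinned to 500 UMIs in 26.4% (24.2 to 28.6) and 56.9% (54.5 to 59.4). No cell of these classes fell below 500 UMIs. Of the thinned cells, 3.02% in S100A4-11 and 17.0% in IgG held 3 to 5 member UMIs, and 0.197% and 5.07% held 6 to 10. Large-vessel endothelial-like cells were positive in 21.4% and 42.9% after thinning, and aerocyte-like cells in 9.86% and 21.3%. For alveolar type 2-like cells the thinned shares were 85.8% (79.5 to 90.8) and 78.2% (73.1 to 82.8), with means of 3.86 and 3.39 member UMIs of 500. B cell-like cells were positive in 99.5% and 98.7%. Of nonclassical monocyte-like cells, 50.8% in S100A4-11 and 46.9% in IgG held no member UMI, and 15.9% and 20.6% held 11 or more. Among classical monocyte-like cells 69.4% and 62.9% held none. Neutrophil-like cells, at median depths of 3564 and 3755 UMIs, were taken as the background of free RNA, with a thinned share of 5.18% (4.27 to 6.21) in S100A4-11 and 6.71% (5.74 to 7.78) in IgG. General capillary-like cells stood above it in both libraries.

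**Figure D4:**
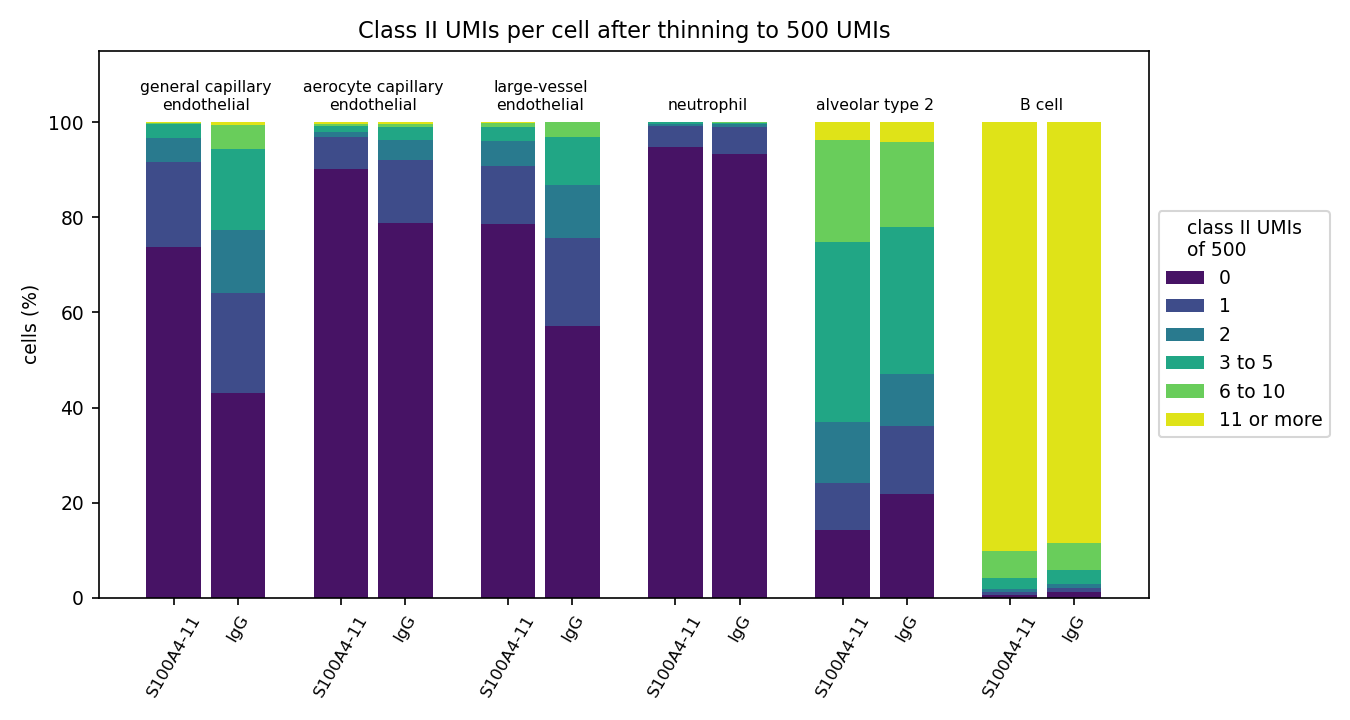
Share of cells (%) by the number of class II UMIs among 500 UMIs drawn per cell, for S100A4-11 beside IgG in each class. In general capillary cells 73.6% of S100A4-11 and 43.1% of IgG cells drew none, in alveolar type 2 cells 14.2% and 21.8%, and 90.1% and 88.5% of B cells drew 11 or more.

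General capillary-like cells carried the markers of their name: the 8 endothelial markers summed to 13933 CPM in S100A4-11 and 13951 CPM in IgG and the 5 general capillary markers to 9650.3 and 9123 CPM. Markers of conventional dendritic cells and interstitial macrophages were at like levels there in both libraries. The 8 B cell markers summed to 20.2 and 14.8 CPM, higher in S100A4-11, with Cd22 at 0 in S100A4-11. The 6 markers of conventional dendritic cells 1 summed to 298 and 278 CPM with Xcr1 at 0 in both libraries. They include Cadm1, a leading gene of unnamed cluster 10, whose best marker match was endothelial, and the part of Cadm1 in the sum was not tested. Those of conventional dendritic cells 2 summed to 44.2 and 41.3 CPM with Clec10a at 0 in both. Interstitial macrophage markers, 6 of 8 detected in S100A4-11 and 8 of 8 in IgG, summed to 139 and 135 CPM. Alveolar type 2 markers (8 of 8 detected) differed, with 155 CPM in S100A4-11 and 376 CPM in IgG, and airway markers with 15.6 and 174 CPM. The same lists stood at 179 and 376 CPM and at 7.05 and 173 CPM in neutrophil-like cells. Its part in the class II ratio was not tested. In aerocyte-like cells the alveolar type 2 markers were at 214 and 262 CPM, and in large-vessel endothelial-like cells at 129 and 242 CPM.

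The make-up of the class II transcripts separated the endothelium from the presenting cells. Per UMI of H2-Aa, general capillary-like cells had 2.19 UMIs of H2-Ab1 (2 to 2.39) in S100A4-11 and 2.01 (1.91 to 2.11) in IgG. Aerocyte-like cells had 1.36 and 1.74, and large-vessel endothelial-like cells 1.48 and 1.81. In B cell-like, dendritic cell-like, interstitial macrophage-like and alveolar type 2-like cells the same ratio lay between 0.426 and 0.642 in both libraries. H2-Aa and H2-Ab1 make the chains of 1 heterodimer, and their proportion in the counts differed between the endothelial classes and these 4. More H2-Ab1 than H2-Aa was not particular to the endothelium. Pericyte-like and smooth muscle-like cells had 105.5 CPM of H2-Ab1 and 98.2 CPM of H2-Aa in S100A4-11, and 292 and 201 CPM in IgG. Cd74 per H2-Aa UMI was 2.91 (2.68 to 3.17) in general capillary-like cells of S100A4-11 and 4.69 (4.49 to 4.91) in those of IgG. It was lower in S100A4-11 in aerocyte-like cells, 2.89 against 4.17, and in large-vessel endothelial-like cells, 2.84 against 3.82. In alveolar type 2-like cells it was 3.95 and 3.76, in B cell-like cells 2.44 and 2.42, and in dendritic cell-like cells 2.08 and 2.02. Cd74 accordingly made up 41.7% of the member UMIs of general capillary-like cells in S100A4-11 and 53.4% in IgG, and 63.8% and 63.3% of those of alveolar type 2-like cells.

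**Figure D5:**
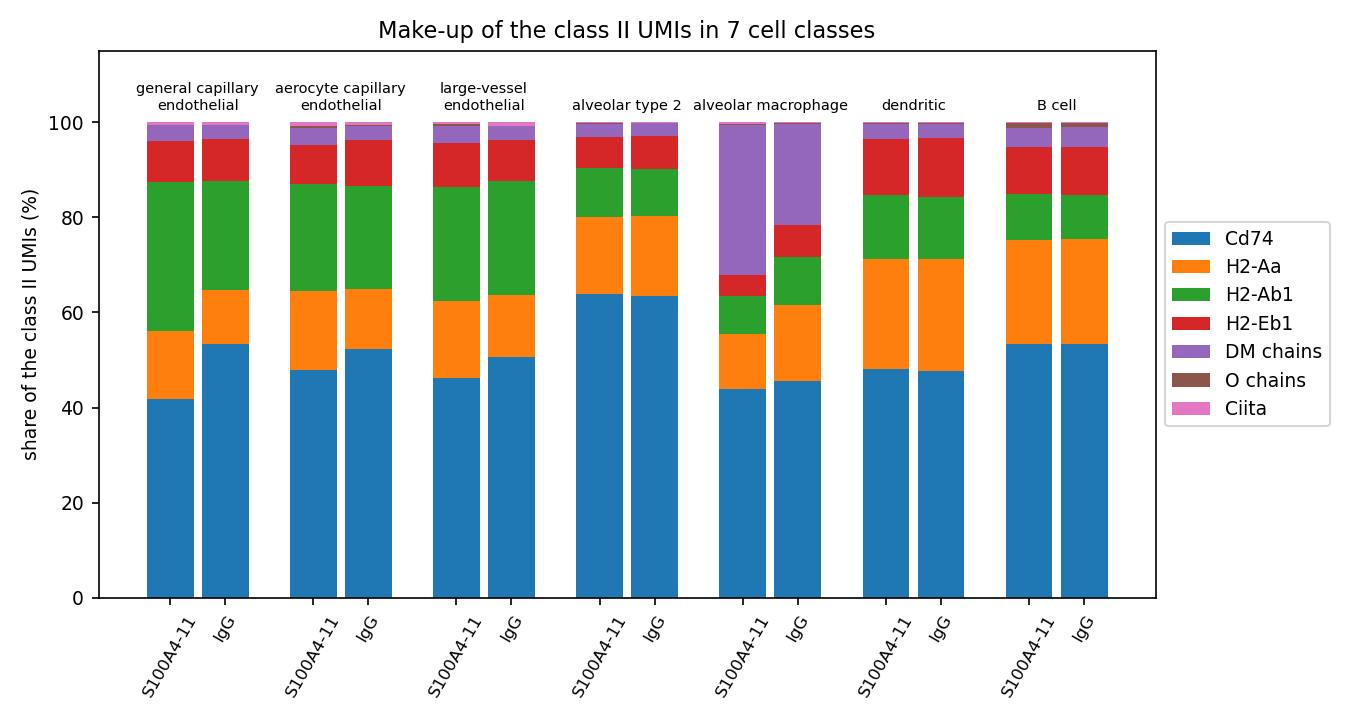
Share of the class II UMIs (%) taken by each gene or chain pair, for S100A4-11 beside IgG in 7 cell classes, with the DM chains (H2-DMa, H2-DMb1, H2-DMb2) and O chains (H2-Oa, H2-Ob) added up. Cd74 takes 41.7% in S100A4-11 and 53.4% in IgG in general capillary cells, H2-Ab1 exceeds H2-Aa only in the 3 endothelial classes of those drawn, and the DM chains reach 31.4% and 21.2% in alveolar macrophages.

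Of the accessory genes, H2-Oa, H2-Ob and H2-DMb2 were highest in another class than the peptide-binding chains, which were highest in dendritic cell-like cells. H2-Oa and H2-Ob, the chains that restrain H2-DM, were highest in B cell-like cells, at 209.8 and 195 CPM for H2-Oa and 184 and 170.4 CPM for H2-Ob. Dendritic cell-like cells had 61.4 and 61.1 CPM of H2-Oa and 23.0 and 33.3 CPM of H2-Ob. H2-DMb2 was highest in B cell-like cells as well, at 1155 and 1182 CPM, against 592 and 584 CPM in dendritic cell-like cells. H2-DMb1, in contrast, was highest in dendritic cell-like cells at 232 and 296 CPM and only 68.3 and 70.1 CPM in B cell-like cells. B cell-like cells thus had 16.9 (15.1 to 19) H2-DMb2 UMIs per H2-DMb1 UMI in S100A4-11 and 16.9 (14.6 to 19.5) in IgG, where dendritic cell-like cells had 2.55 and 1.97, with the limit on telling these paralogs apart. H2-DMa, the shared alpha chain, was highest in dendritic cell-like cells at 702 and 852 CPM.

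Alveolar macrophage-like cells, with 498 S100A4-11 and 715 IgG cells, had 5 of 8 members called lower and 3 not called. Among the 3, H2-DMa had 187 CPM in S100A4-11 and 215 CPM in IgG, a ratio of 0.87 (0.795 to 0.95), H2-DMb1 7.09 and 6.37 CPM, a ratio of 1.11 (0.667 to 1.84), and Ciita 11 and 19 UMIs, a ratio of 0.837 (0.360 to 1.85). H2-Aa had 75.6 and 183 CPM, a ratio of 0.413 (0.364 to 0.468), and Cd74 287 and 518 CPM, a ratio of 0.555 (0.519 to 0.593). H2-Ab1, H2-Eb1 and H2-DMb2 were lower as well, where 4.15% of 11097 features were called and 2.8% were lower. H2-DMa UMIs per H2-Aa UMI were 2.48 (2.17 to 2.83) and 1.18 (1.09 to 1.28), while in dendritic cell-like cells they were 0.0656 and 0.0620. The 5 cells with most member UMIs held 20.5% of the class's member UMIs in S100A4-11 and 27.2% in IgG. Without such cells and under 13 other alternatives the summed ratio, 0.575 (0.55 to 0.601) as reported, ran from 0.467 to 0.711, and the value above 0.667 was 1 of 14.

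The remaining classes are not among the professional antigen-presenting cells named above. Innate lymphoid-like cells had 768 and 1968 CPM, a ratio of 0.39 (0.333 to 0.455). The median log2 ratio of their 6 tested members was -1.2, beside 0.01 over all features tested. Fibroblast-like cells had 621 and 1178 CPM, and pericyte-like and smooth muscle-like cells 619.8 and 1479 CPM. Natural killer-like cells had 268 and 469.7 CPM, and immature granulocyte-like cells 527 and 372 CPM. In fibroblast-like cells 6 of 8 members past 20 UMIs were lower, where 6.33% of features were called and 4% were lower, and in pericyte-like and smooth muscle-like cells 7 of 8, where 6.25% were called and 3.42% were lower. Neutrophil-like cells had 3 of 6 lower, beside 5.71% called and 3.86% lower, and natural killer-like cells 3 of 6, beside 4.92% called and 3.28% lower. The 5 cells with most member UMIs held 43.6% of them among S100A4-11 fibroblast-like cells and 70.9% among the IgG ones, and 19.3% and 51.7% among neutrophil-like cells. Without these cells the fibroblast ratio was 1.02, against 0.527 (0.502 to 0.554) with them. Immature granulocyte-like cells, the precursors of neutrophils, had H2-Aa higher at 122 and 80.02 CPM, a ratio of 1.52 (1.29 to 1.78), and H2-DMb2 higher at 14.4 and 7.85 CPM, a ratio of 1.84 (1.1 to 3.08), where 6.16% of features were called and 3.67% were higher.

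Where 10 or more cells of a class and library held a Ciita UMI, those cells had more of the other class II transcripts, except among B cell-like cells. In classical monocyte-like cells, the 39 S100A4-11 and 40 IgG cells with a Ciita UMI had 23068 and 18021 CPM of the other 9 members, beside 2949 and 3774 CPM in cells without one. Dendritic cell-like cells with Ciita had 59300 and 70656 CPM and those without 34430 and 37416 CPM. In general capillary-like cells, 26 S100A4-11 and 101 IgG cells had a Ciita UMI, with 1133 and 4243 CPM of the other members, against 859.8 and 3068 CPM in the rest. The rest were 1499 S100A4-11 and 1476 IgG cells, nearly the whole class, so their values largely repeat those of the class. At this depth a missing Ciita UMI does not show that a cell lacked Ciita. B cell-like cells with and without Ciita were close, at 37266 and 37404 CPM with it and 40047 and 38833 CPM without it. Cells with a Ciita UMI were deeper, for instance 4967 and 4628 UMIs at the median in general capillary-like cells beside 3069 and 3039.5 in the others.

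Other genes of the pathway were read from lists of transcription factors, interferon-gamma input, proteolysis, turnover and costimulation, 27 genes in all. In general capillary-like cells 0 of 7 transcription genes were called. Of the interferon-gamma list 0 of 6 tested were called, of the proteolysis list 1 of 7 was lower and 0 higher, and of the turnover and costimulation lists 0 of 2 and 0 of 2. The 1 called was Ctss, cathepsin S, which cuts the invariant chain, with 3.56 CPM in S100A4-11 and 6.51 CPM in IgG. Picked after their values were seen, Irf1, which binds an interferon-responsive promoter of Ciita, had 305 and 405 CPM (0.752), the receptor chain Ifngr1 209 and 211 CPM (0.992), and Rfx5, an RFX subunit, 11.7 and 11.3 CPM (1.04). In aerocyte-like cells no gene of the 5 lists was called.

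Calls in the other classes differed from list to list. Large-vessel endothelial-like cells had Cd83, which stabilises class II at the surface of dendritic cells, at 19.8 and 37.9 CPM, a ratio of 0.523 (0.369 to 0.732), and it was the 1 lower call of the costimulation list. Their 1 call in proteolysis was higher, where 2.33% of features were, Ctss at 22.9 and 14.95 CPM. In alveolar type 2-like cells Irf1 was lower at 61.4 and 109.8 CPM, a ratio of 0.559 (0.44 to 0.706), Ctss at 16.3 and 35.1 CPM, a ratio of 0.465 (0.288 to 0.726), and Creb1, which binds the X box, at 28.1 and 46.4 CPM, a ratio of 0.606 (0.42 to 0.859). The costimulation list there had 2 of 2 tested genes lower, where 6.2% of features were. They were Cd83, at 28.8 and 48.4 CPM, and Cd86, a ligand of the T cell costimulatory receptor CD28, at 5 and 30 UMIs. Airway epithelial markers, summed over 7 genes, were at 1789.8 CPM in these S100A4-11 cells and 11211 CPM in the IgG cells, and their part in these calls was not tested. Dendritic cell-like cells had Cd40, the receptor for T cell help, lower at 63.3 and 111 CPM, a ratio of 0.57 (0.416 to 0.776). Ifi30, a lysosomal thiol reductase that opens proteins for cutting, had 892 and 1268 CPM there, a ratio of 0.704 (0.647 to 0.765). In the transcription list 2 of 5 were higher in dendritic cell-like cells, where 4.67% of features were higher and 3.4% lower, Rfxap at 40 and 24 UMIs and the NF-Y subunit gene Nfyc at 36 and 19 UMIs. Interstitial macrophage-like cells had 3 of 5 transcription genes lower, where 3.67% of features were, among them the RFX subunit Rfxap at 15 and 45 UMIs, a ratio of 0.492 (0.255 to 0.9). The others were Creb1 at 36 and 80 UMIs and the NF-Y subunit gene Nfya at 21 and 53 UMIs. Cd86 and Cd83 in alveolar type 2-like cells, Rfxap and Nfyc in dendritic cell-like cells and Creb1 and Nfya in interstitial macrophage-like cells were picked after their values were seen. March1, the ligase that marks class II for destruction, had 122 and 145 CPM in B cell-like cells, a ratio of 0.839 (0.737 to 0.955). March8, a related ligase, had 28.6 and 34.2 CPM in alveolar macrophage-like cells, a ratio of 0.837 (0.663 to 1.05).

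Likeness was read across 21 named classes of both libraries, 42 profiles that share library and depth. Plasmacytoid dendritic cell-like and airway epithelial-like cells were left out as too few. The level of each member was set against the sum of the other 9 on the log2(CPM + 1) scale. Pearson's r was 0.991 for Cd74, 0.984 for H2-Eb1, 0.974 for both H2-Ab1 and H2-Aa, 0.962 for H2-DMb2, 0.958 for H2-DMb1 and 0.943 for Ciita. H2-DMa stood lower at 0.816, and H2-Ob and H2-Oa at 0.5 and 0.340. Outside the members, 8587 genes with at least 50 CPM in 1 class were ranked by their r with the sum of all 10 members. The 10 most alike were Fgd2, a guanine nucleotide exchange factor, at 0.884, Ifi30 at 0.868, Erlin1 at 0.832, the Toll-like receptor homologue Cd180 at 0.823, Hepacam2 at 0.783, Cd83 at 0.781, the Cd180 partner Ly86 at 0.778, Syngr2 at 0.775, the Toll-like receptor chaperone Cnpy3 at 0.760 and the amino acid oxidase Il4i1 at 0.757. None of them reached the r of the 7 closest members, and Fgd2, Ifi30, Erlin1 and Cd180 were above H2-DMa. The sums differ, as members were set against 9 genes and these against 10.

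The source of the class II transcripts in the whole sample differed between the libraries. B cell-like cells gave 48.3% of the member UMIs of the S100A4-11 library and 27.5% of those of the IgG library, and made up 11.6% and 6.49% of the cells. Dendritic cell-like cells gave 13.3% and 15.4% from 0.785% and 0.704% of the cells. General capillary-like cells gave 1.42% and 4.92% from 13.01% and 11.8% of the cells, and alveolar type 2-like cells 3.47% and 5.68%. Over all kept cells the summed level was 6192 CPM in S100A4-11 and 5408 CPM in IgG, a ratio of 1.15 (1.14 to 1.15), above 1 although 10 of the 18 classes were called lower. With the class shares held at those of the IgG library the level was 4617 CPM in S100A4-11 beside 5408 CPM in IgG, a ratio of 0.854. H2-Oa and H2-Ob, the members most tied to B cell-like cells, had whole-library ratios of 1.91 (1.75 to 2.1) and 1.94 (1.75 to 2.15) and were called higher, where 10.2% of 19191 features were called and 2.86% were higher. At the IgG class shares these ratios were 1.17 and 1.12. Over all kept cells Ciita had 13.4 and 13.95 CPM, a ratio of 0.958 (0.872 to 1.05).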

How the data were processed

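Whole UMI counts per gene and barcode were deposited by the authors as sparse matrices, per the file headers, with 1 matrix per library. They were made with Cell Ranger 7.1.0 and build mm10, per the submitters' processing notes, from a 10x Genomics 5' kit, per the labels' protocols. No correction for free RNA is recorded in the sources used here.

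Barcodes with under 200 genes (101 in S100A4-11, 67 in IgG) or over 15% mitochondrial UMIs (40 and 59) were removed, as were doublets called by Scrublet in Scanpy 1.11.5 at an expected rate of 0.1 (645, or 5.22%, and 926, or 6.48%). Every deposited barcode had at least 500 UMIs. The kept cells held 58583155 and 75692865 UMIs, with medians of 1447 and 1556 genes. Cells of both libraries were clustered together on 2000 variable genes without the 10 members, 30 principal components and 15 neighbours (Leiden, resolution 2, leidenalg 0.10.2, Python 3.11.15), and 1 cluster of macrophages and dendritic cells was clustered again. Names came from marker lists. The naming rule and the second clustering were set after clusters had been seen. A cluster that also had the markers of another lineage, or more of them among its leading genes, stayed unnamed. Some clusters with mixed leading genes passed this rule. Cluster 43, named neutrophil, had the platelet genes Itga2b and Ppbp among them, and cluster 5007, in the dendritic class, had C1qa, C1qb and C1qc. The members and lists were chosen with earlier results of these data known.

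UMIs were summed per class and library. Levels carry exact Poisson intervals, shares exact Clopper-Pearson intervals and ratios exact conditional binomial intervals (SciPy 1.17.1), all at 95% and covering counting error only. They miss the spread between the cells of a class, and that between animals, for which no replicate exists. No p-value was computed. Steps for calls were tested on simulated counts with known changes. Pathway genes were named by a rule: of each list, the 2 genes whose interval bound nearest 1 lay farthest from 1 among the described classes. Thinning drew 500 UMIs per cell without replacement. Alternatives changed the cell filter, doublets, clustering, scaling (TMM from edgeR 4.0.16 in R 4.3.3, median of ratios), cell weights, cluster shares and the minimum UMI count. Leaving out the 5 cells with most member UMIs in each library was added after seeing the data. H2-Ea, the alpha chain of H2-E, was not analysed here. Some genes of the marker and pathway lists are not reported here.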

Additional observations from a re-analysis of the deposited data

Results flagged for a closer look

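The summed class II level of T cell-like cells was higher in S100A4-11 as clustered here, but its ratio fell below 1 under 5 of 14 alternatives, to between 0.356 and 0.928. It was 204 CPM (763 UMIs) in S100A4-11 and 119 CPM (397 UMIs) in IgG, a ratio of 1.71 (1.51 to 1.93), whereas 10 of the 18 classes that reached 50 cells per library were called lower and T cell-like cells were the 1 class called higher. The difference between the classes was not tested, as each group has 1 library. Of the members in T cell-like cells, 4 of 7 past 20 UMIs were called higher, where 5.38% of features were called and 2.08% were higher, and Cd74 had 88.2 and 45.1 CPM. After thinning, 5.14% and 4.28% of T cell-like cells held a member UMI, near the 5.18% and 6.71% of neutrophil-like cells. The 5 cells with most member UMIs held 56.8% of them in S100A4-11 and 35.01% in IgG. The cluster led by Icos and Ctla4 had 289.6 and 92.7 CPM, and cluster 3 had 156 and 130.3 CPM.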

How the results depend on the processing

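No paired analysis was possible because each group has 1 library. The direction of the summed S100A4-11 over IgG ratio stayed below 1 in general capillary-like (0.261 to 0.308), aerocyte-like (0.260 to 0.540) and large-vessel endothelial-like cells (0.370 to 0.696) under 14 alternatives each, and at or below 0.667 in 14, 14 and 13 of them. In B cell-like and alveolar type 2-like cells it stayed on the side of 1 of the reported value under 13 of 14, and in dendritic cell-like cells under 13 of 13. Classical monocyte-like cells were below 1 under 12 of 14, with a highest value of 1.95.
With no barcode removed for genes or mitochondrial share, the ratio was 0.841 in dendritic, 1.05 in B, 0.291 in general capillary, 0.337 in aerocyte, 0.539 in large-vessel and 1.07 in alveolar type 2-like cells, and the level over both libraries 55807, 40448, 2153 and 7874 CPM in dendritic, B, general capillary and alveolar type 2-like cells. With at least 500 genes the ratios were 0.805, 1.04, 0.303, 0.559 and 1.06 in dendritic, B, general capillary, large-vessel and alveolar type 2-like cells, and the levels 55635, 40701 and 2013 CPM in dendritic, B and general capillary-like cells. With doublets kept they were 0.909 in dendritic, 1.01 in B, 0.260 in aerocyte, 0.491 in large-vessel and 1.13 in alveolar type 2-like cells, at levels of 67081 CPM in dendritic, 34694 in B and 7122 in alveolar type 2-like cells. At resolution 1 they were 0.911 in dendritic, 1.03 in B, 0.308 in general capillary, 0.322 in aerocyte and 0.610 in large-vessel cells, at 71157 CPM in dendritic and 40648 in B cell-like cells. At resolution 3 they were 0.774, 1.03, 0.286, 0.696 and 1.18 in dendritic, B, general capillary, large-vessel and alveolar type 2-like cells, at 54707, 40657, 2037 and 6521 CPM in dendritic, B, general capillary and alveolar type 2-like cells. With members among the variable genes, general capillary cells had 0.296, aerocytes 0.421 and large-vessel cells 0.555, and dendritic cells 54701 CPM. With each library clustered alone, B cells had 1.04, aerocytes 0.368, large-vessel cells 0.567 and alveolar type 2-like cells 0.941, at 40556 CPM in B, 2037 in general capillary and 7666 in alveolar type 2-like cells, and no dendritic class was found in S100A4-11. Median-of-ratios scaling gave 0.767 in dendritic, 1.07 in B and 1.08 in alveolar type 2-like cells, and TMM 0.769, 1.08 and 1.09. Totals without mitochondrial, ribosomal and haemoglobin genes gave 1.04 in B cells, and totals without the members 0.784 in dendritic cells. With every cell weighing the same, B cells had 1.03, general capillary cells 0.285, aerocytes 0.540, large-vessel cells 0.399 and alveolar type 2-like cells 1.11. At the IgG cluster shares dendritic cells had 0.932, B cells 0.995 and aerocytes 0.411. Without the 5 cells with most member UMIs, chosen after seeing the data, dendritic cells had 0.772, general capillary cells 0.261, aerocytes 0.341, large-vessel cells 0.370 and alveolar type 2-like cells 1.07.
The summed T cell ratio reversed to 0.356 with no barcode filter, 0.928 with at least 500 genes, 0.703 with doublets kept, 0.723 at resolution 1 and 0.415 with libraries alone. Neutrophils reversed to 1.32 at resolution 3, fibroblasts to 1.02 without the 5 cells, and Ciita in large-vessel cells to 1.01 with no barcode filter. The cause was not tested. With no minimum UMI count, H2-Oa was called higher in alveolar type 2-like cells, from 8 S100A4-11 and 3 IgG UMIs. With at least 100 UMIs, 8 of 8 members were lower in general capillary, 6 of 6 in aerocyte and 6 of 6 in large-vessel cells. With UMI totals the median log2 ratio of all genes lay within 0.1 of 0 in the 15 classes where scalings were compared and over all kept cells. Airway epithelial-like cells, not among these, had a median of 0.35. Depth leaves H2-Oa and H2-Ob below what can be compared in general capillary, aerocyte and large-vessel cells taken singly. Ciita there rests on 13 to 116 UMIs per class and library. With all endothelial classes pooled, the 10 members had a median log2 ratio of -1.32, beside -0.02 over all features tested, and 8 had a ratio below 1. H2-Oa went the other way and was called higher. It had 14 UMIs in S100A4-11 and 6 in IgG, a ratio of 2.85 (1.03 to 9.04). H2-Ob had 17 and 9 UMIs in this pool, a ratio of 2.30 (0.972 to 5.87), and was not called. H2-DMb1 and H2-DMb2 may share reads.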

Other observations

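Clusters that stayed unnamed held 626 S100A4-11 and 1203 IgG cells. Cluster 10, led by Adgrl3 and Ptprm, had 577 CPM of the 10 genes in S100A4-11 and 1772 CPM in IgG, from 325 and 587 cells. Cluster 27 had 745 and 2054 CPM, and cluster 35, led by platelet genes, 1295 and 3046 CPM. Cluster 30, led by the surfactant genes Sftpa1 and Sftpc, had 3470.3 and 3778 CPM, but from 22 S100A4-11 and 261 IgG cells and at median depths of 16682 and 2318 UMIs.

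Clusters of some named classes went opposite ways. Among fibroblast-like cells, cluster 28 had 71.2 CPM in S100A4-11 and 3101 CPM in IgG, and cluster 22 had 1217 and 3991 CPM, while clusters 18 and 25 had 539 and 648 CPM in S100A4-11 and 334 and 369 CPM in IgG. Among alveolar macrophage-like cells, cluster 45 had 1902 and 325 CPM from 30 and 28 cells, and cluster 48 had 570.2 and 4052 CPM from 16 and 19 cells. Neutrophil-like cluster 4 had 236 and 936 CPM, and cluster 1 had 179 and 159 CPM. Plasmacytoid dendritic cell-like cells, the interferon-producing dendritic cells, numbered 15 and 12 and had 4714 and 7025 CPM. Other classes also had too few cells for the main comparison. Alveolar type 1-like cells (47 and 144) had 771 and 2351 CPM, a ratio of 0.328 (0.28 to 0.383). The median log2 ratio of their 4 tested members was -1.75, beside 0.004 over all features tested. In lymphatic endothelial-like cells (33 and 35) it was -1.09 over 4 tested members, beside -0.01. Going the other way, airway epithelial-like cells (19 and 34) had 1025 and 290 CPM. Their 4 tested members had a median of 1.83, where all features had 0.35. In basophil-like or mast cell-like cells (53 and 47) the median of 3 tested members was 0.62, beside 0.08. These values have no replicate.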
